A study of Caenorhabditis elegans with 12 samples.

Results

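The X chromosome of *Caenorhabditis elegans* was followed through 89 windows of 200 kb that cover it from its left tip to its last base. They were chosen by chromosome alone and make up 89 of the 504 windows of the genome. LEM-2, which sits in the inner membrane of the nucleus, was immunoprecipitated from cross-linked chromatin of early embryos, so that windows lying at the nuclear periphery gain reads over the matched input chromatin. The groups were wild-type (strain GW1), the double deletion of met-2 and set-25 (strain GW638, labelled met-2 set-25_delta_delta and called the double mutant below) and the deletion cec-4 (strain GW828), with 2 LEM-2 and 2 input libraries each. Cultures of the strains ran side by side, 1 set for each of the 2 biological replicates, and no allele or agent is listed that all groups carry. The embryos were harvested in bulk, so a contact made in fewer cells and a weaker contact in all cells cannot be told apart, and each genotype was 1 strain.

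MET-2 and SET-25 are methyltransferases that place methyl groups on lysine 9 of histone H3, and CEC-4, which carries a chromodomain and sits at the nuclear periphery, holds chromatin with this mark there. In worm embryos the arms of the autosomes, which are rich in repeats and in this mark, lie at the nuclear lamina, while their gene-rich centres lie inside the nucleus. X is known to differ, since its contact with the lamina is mostly at its left end. X is also the chromosome bound by the dosage compensation complex in hermaphrodite embryos. No gene names or sequences are given for the windows, because the sources used here do not name the genome build of the counts.

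Libraries held between 10750212 and 12340446 counts, and the median X window between 17808 and 25687. In the 6 inputs X was covered per base at 0.998 to 1.002 times the autosomal centres, so X did not stand apart from the centres before immunoprecipitation. Between the input of either mutant and that of wild-type 0 X windows were called with edgeR's quasi-likelihood test, and 0 had an unadjusted p under 0.05. In the LEM-2 libraries X was covered at 1.132 and 1.135 times the centres in wild-type, at 1.06 and 1.063 times in the double mutant, and at 1.034 and 1.032 times in cec-4. Against the autosomal arms the same coverage was 0.66 and 0.714 in wild-type, 0.921 and 0.875 in the double mutant, and 0.949 and 0.915 in cec-4, while the inputs stood at 1.058 to 1.092. X therefore lay above the centres and below the arms in all 6 LEM-2 libraries, and closer to both in the mutants, but further below the arms than these values show once the inputs are counted.

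X was divided into a left end (the 20 windows that start below 4 Mb), a body (64 windows) and a right end (the last 5 windows). Levels are log2 of LEM-2 over the input of the same genotype and number, each in CPM (counts scaled to the library total) plus 1, and a region's level is the mean over its windows. The left end stood at 0.02 and 0.03 in the wild-type libraries, at 0.03 and 0.01 in the double mutant, and at -0.02 and -0.05 in cec-4. These 6 values lie near the genome's average, and the cec-4 libraries are the lowest. Under library totals they average over opposite changes. The first 2 Mb changed by -0.11 in the double mutant and -0.19 in cec-4, and the next 2 Mb by 0.11 and 0.08. The rise of the next 2 Mb depends on this scaling. With each library scaled to its counts in the autosomal centres, the highest change of any left-end window was -0.05 in each mutant. The body stood at -0.40 and -0.30 in wild-type, -0.09 and -0.14 in the double mutant, and -0.09 and -0.13 in cec-4. The body was thus depleted of LEM-2 in every library, and both libraries of each mutant lay above both of wild-type. The right end stood at 0.13 and 0.12 in wild-type, 0.22 and 0.16 in the double mutant, and 0.20 and 0.14 in cec-4. It was above its input in all 6 libraries, and higher in each mutant library than in either wild-type library under library totals, though not with TMM factors (trimmed means), where its mean change was -0.03 in the double mutant and -0.08 in cec-4.

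**Figure D1:**
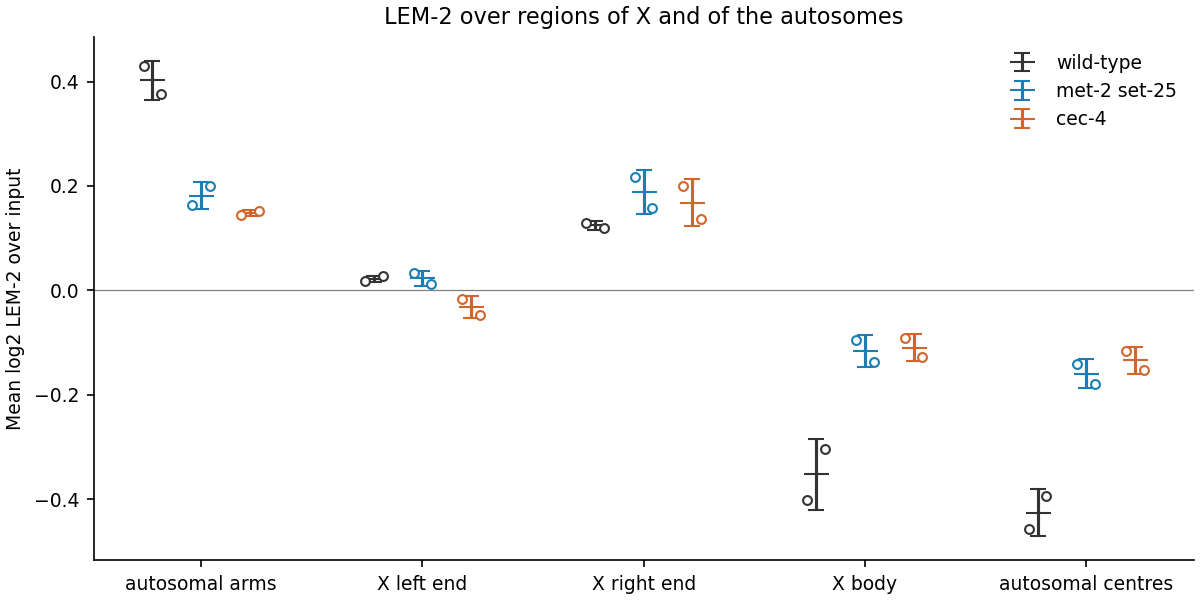
Mean log2 LEM-2 over input (y axis) for the autosomal arms, the 3 regions of X and the autosomal centres, with open points for libraries, bars for the mean and whiskers for the SD (n = 2 per genotype). The body of X, at -0.40 and -0.30 in wild-type, sits beside the autosomal centres and moves up with them in both mutants. Under library totals the mean of the left end stays near 0.

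In wild-type the body of X, at -0.35 ± 0.07 (SD, n = 2), fell within the range of the 5 autosomal centres. It lay above the centres of I (-0.51), II (-0.56) and III (-0.61) and below those of IV (-0.31) and V (-0.28). The left end of X, at 0.02 ± 0.01 (SD, n = 2), lay below all 10 autosomal arms, of which the left arm of V (0.24) and that of II (0.25) were the lowest. As a whole, then, the left end of X was a weaker LEM-2 region than any autosomal arm at these borders, although its highest windows exceeded the mean of every arm.

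The left end was itself uneven. Its first 2 Mb stood at 0.29 and 0.29 in wild-type and the next 2 Mb at -0.25 and -0.23, so the enrichment was held by the outer stretch. At the 4 Mb border the last window inside stood at -0.12 and -0.10, the first outside at -0.15 and -0.05, and the next, at 4.2 to 4.4 Mb, at -0.62 and -0.55. At this border the level thus dropped by the second window beyond it. This was not the only drop to such levels. Inside the left end, wild-type stood at -0.56 and -0.51 at 2.4 to 2.6 Mb and at -0.41 and -0.36 at 2.8 to 3 Mb.

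**Figure D2:**
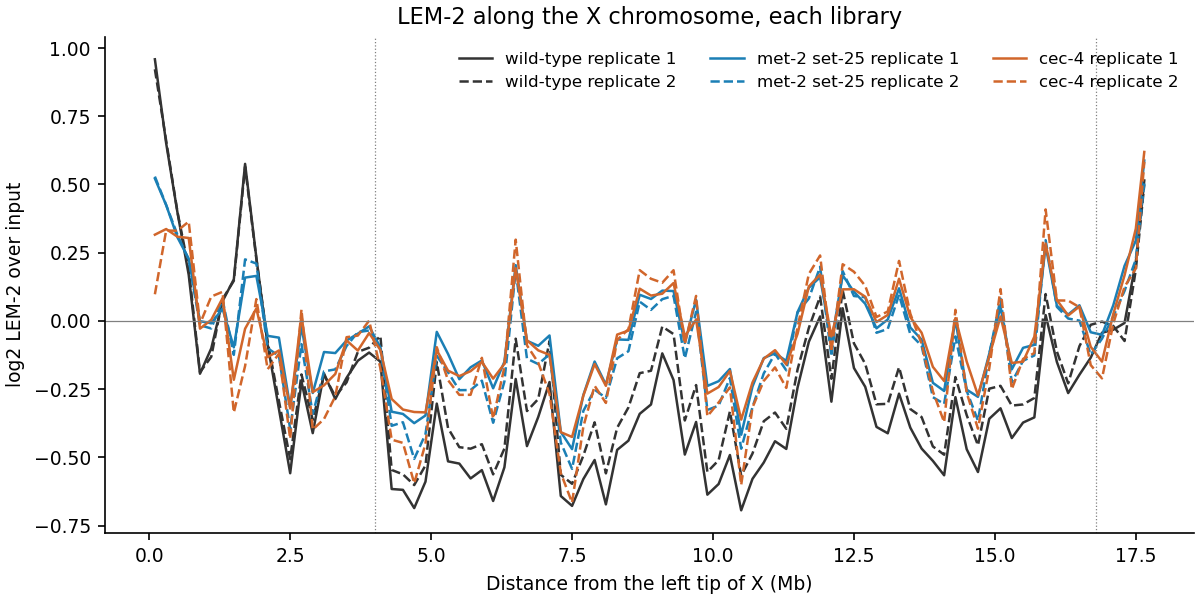
log2 LEM-2 over input (y axis) in the 89 windows of X against distance from the left tip in Mb (x axis), 1 line per library (replicate 1 solid, replicate 2 dashed), with dotted vertical lines at the inner borders of the left and right ends. The wild-type lines start at 0.96 and 0.92, run mostly below 0 between the borders and end at 0.51 and 0.50.

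Of the 89 X windows, 10 were called higher and 70 lower in LEM-2 than in input in wild-type (edgeR quasi-likelihood test with Benjamini-Hochberg adjustment over the 504 windows, at 0.05), against 40.5% of all windows called higher and 52.4% called lower. The left end held 8 of the 10 enriched windows, the right end the other 2 (17.4 to 17.6 and 17.6 to 17.7 Mb), and 58 of the 64 body windows were depleted. With DESeq2 size factors 17 X windows were called enriched in wild-type. In the double mutant, 19 X windows were called higher and 46 lower, against 37.5% and 39.7% of all windows. Leaving out a double-mutant replicate lowered these counts, to 12 higher without replicate 1 and to 10 higher and 25 lower without replicate 2. In cec-4, 21 were called higher and 46 lower, against 38.9% and 42.7%. Of the 70 X windows depleted in wild-type, 45 were called depleted in the double mutant and 5 enriched, and 43 were called depleted in cec-4 and 8 enriched. Of 177 windows of autosomal centres depleted in wild-type, 128 were called depleted and 13 enriched in the double mutant, and 117 and 28 in cec-4, so most depleted windows kept that call on X as in the centres. Under library totals 10 body windows were called enriched in the double mutant and 13 in cec-4. In wild-type 0 were, also at an unadjusted p under 0.05 (edgeR). That absence may depend on the scaling. At 11.8 to 12, 12.2 to 12.4 and 15.8 to 16 Mb the wild-type level was 0.05, 0.08 and 0.06 under library totals. With TMM factors it was 0.15, 0.18 and 0.16. Whether body windows are among the 17 called with size factors is not given, so body enrichment was not shown to be new in the mutants.

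The highest point of X in wild-type was its left tip. The window at 0 to 0.2 Mb stood at 0.96 and 0.92 in wild-type, 0.52 and 0.53 in the double mutant, and 0.32 and 0.10 in cec-4. All 4 mutant libraries lay below both wild-type libraries, and the cec-4 libraries were lowest and furthest apart. Much of the gap between the cec-4 libraries lay in their inputs, which held 11745 and 11627 counts there from totals of 12184260 and 10750212. This window also held the smallest X count of any library, 11392 in input 1 of wild-type, against library medians of 17808 or more. Its level fell by 0.41 in the double mutant (SE 0.08, adjusted p = 0.000278) and by 0.74 in cec-4 (SE 0.08, adjusted p = 1.54e-06, edgeR with Benjamini-Hochberg adjustment). The next window, at 0.2 to 0.4 Mb, stood at 0.65 and 0.66 in wild-type, 0.42 and 0.43 in the double mutant, and 0.34 and 0.33 in cec-4. Here the groups were far apart relative to the spread within them, and the falls of 0.23 and 0.32 were called in edgeR (adjusted p = 0.00169 and 0.000101).

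Where these falls stopped depended on the scaling. At 0.4 to 0.6 Mb the changes of -0.09 in the double mutant and -0.08 in cec-4 were not called under library totals, but were called falls with TMM (trimmed-mean) factors, at -0.18 and -0.20 (adjusted p = 0.00592 and 0.00303), and with DESeq2 size factors in edgeR, at -0.22 and -0.21. At 0.6 to 0.8 Mb the level was 0.17 and 0.19 in wild-type, 0.23 and 0.22 in the double mutant, and 0.30 and 0.36 in cec-4. Both cec-4 libraries were the highest, and the rise of 0.15 in cec-4 was called by edgeR (adjusted p = 0.0115), while the 0.05 in the double mutant was not (-0.05 with TMM factors). That call in cec-4 was lost without wild-type replicate 1 and under both other scalings of the libraries. At 0.8 to 1 Mb both mutants were called higher, by 0.18 and 0.17, from a wild-type mean of -0.19, and both calls were lost with TMM factors (0.09 and 0.05) and with size factors (0.05 and 0.04).

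A second block of loss lay between 1.4 and 2 Mb. The window at 1.6 to 1.8 Mb, the third highest of X in wild-type, stood at 0.58 and 0.57 there, 0.16 and 0.23 in the double mutant, and -0.03 and -0.17 in cec-4. It was enriched over input in wild-type and below input in both cec-4 libraries, with the double mutant between. Its level fell by 0.38 in the double mutant (SE 0.06, adjusted p = 0.00012) and by 0.67 in cec-4 (SE 0.06, adjusted p = 7.76e-07, edgeR). The window before it, at 1.4 to 1.6 Mb, went from 0.15 and 0.15 in wild-type to -0.10 and -0.12 in the double mutant and to -0.22 and -0.34 in cec-4. Its libraries did not overlap between genotypes, and its falls of 0.26 and 0.42 were called in edgeR (adjusted p = 0.00061 and 7.49e-06). At 1.8 to 2 Mb the level fell by 0.17 in cec-4 (adjusted p = 0.00605, edgeR), and the change of -0.04 in the double mutant was not called. With TMM factors that change was a called fall of -0.14 (adjusted p = 0.0196), and with size factors one of -0.18 (adjusted p = 0.00473). Under library totals, the 4 falls in the double mutant and the 5 of the left end in cec-4 all lay within these first 2 Mb.

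**Figure D3:**
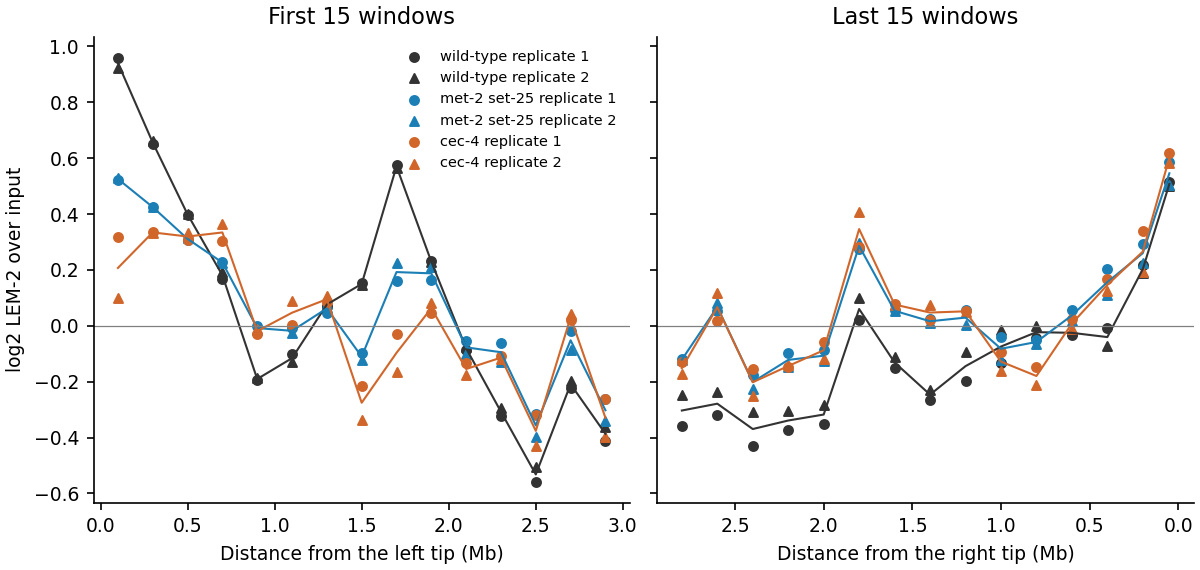
log2 LEM-2 over input (y axis) in the first 15 and last 15 windows of X against distance from the respective tip in Mb (x axis), with circles for replicate 1, triangles for replicate 2 and lines for the mean of the 2 libraries. The mutants lie below wild-type in the first 2 windows and again at 1.6 to 1.8 Mb, whereas at the right tip the 3 genotypes lie together, between 0.50 and 0.62.

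The right tip did not follow the left one. The last window, at 17.6 to 17.7 Mb (118854 bp), stood at 0.51 and 0.50 in wild-type, 0.59 and 0.50 in the double mutant, and 0.62 and 0.58 in cec-4. The double-mutant and wild-type libraries overlapped, both cec-4 libraries were above both of wild-type, and neither change was called, at 0.04 (SE 0.06) and 0.09 (SE 0.06), or -0.06 and -0.03 with TMM factors. The window before it, at 17.4 to 17.6 Mb, stood at 0.22 and 0.19 in wild-type, 0.29 and 0.23 in the double mutant, and 0.34 and 0.19 in cec-4, again with no call, although without cec-4 replicate 2 its rise in cec-4 was called (0.14, adjusted p = 0.0201, edgeR). Within a library, the last window minus the first was -0.44 and -0.42 in wild-type, 0.07 and -0.03 in the double mutant, and 0.30 and 0.49 in cec-4. The left tip was thus the higher tip in both wild-type libraries and the lower in both cec-4 libraries, a comparison that needs no scaling between libraries. The exact two-sided permutation p of this difference was 0.333 for each mutant, the smallest that 2 against 2 libraries allow.

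Among the other windows of the right end, 17.2 to 17.4 Mb was called higher by 0.20 in the double mutant and 0.19 in cec-4 (edgeR adjusted p = 0.00434 and 0.00599). Both calls were lost with TMM factors (0.10 and 0.06) and size factors (0.06 in each), the first also without double-mutant replicate 1 (0.15, adjusted p = 0.0838) and the second without wild-type replicate 2 (0.15, adjusted p = 0.0611). The window at 16.8 to 17 Mb was called lower in cec-4, by 0.16 (adjusted p = 0.011, edgeR), a call that was lost without wild-type replicate 2, and under TMM and size factors it was called lower in the double mutant too (-0.13 and -0.17). At 17 to 17.2 Mb the changes were 0.06 and 0.03 and were not called, and both took the opposite sign under TMM and size-factor scaling.

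Over the whole of X, 65 of 89 windows were called higher and 4 lower in the double mutant than in wild-type (edgeR, adjusted over 504 windows), against 49.4% and 29.8% of all windows. In cec-4, 63 were higher and 6 lower, against 50.6% and 27.6%. Both mutants were compared with the same wild-type libraries, so these counts are not independent of each other. These changes are relative to the library total, under which the median window of the genome rose by 0.15 in the double mutant and by 0.16 in cec-4, while the median X window rose by 0.20 in both. With TMM factors the counts on X were 42 higher and 8 lower in the double mutant and 35 and 13 in cec-4. With DESeq2 size factors in the edgeR fit they were 29 and 11, and 34 and 14. Both libraries lay above both wild-type libraries in 76 X windows in the double mutant, against 55.8% of all windows, and in 72 in cec-4, against 56.5%.

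Most of the rises were in the body, with 57 of its 64 windows called in the double mutant and 55 in cec-4. In the body 0 were called lower in either mutant (58 and 56 changed in some direction at an unadjusted p under 0.05). The autosomal centres gave similar shares, with 85.5% and 84% called higher against 89.1% and 85.9% of the body. In the centres 2% and 3% were called lower. Body windows changed by between -0.01 and 0.36 in the double mutant and between -0.05 and 0.42 in cec-4. The left end had 7 windows called higher in each mutant, and 4 lower in the double mutant and 5 in cec-4. In the double mutant the largest rises were at 8 to 8.2, 9.6 to 9.8, 8.6 to 8.8, 15 to 15.2 and 13 to 13.2 Mb, all between 0.35 and 0.36. In cec-4 they were at 8.6 to 8.8, 13.2 to 13.4, 13 to 13.2, 6.4 to 6.6 and 13.4 to 13.6 Mb, between 0.38 and 0.42. Averaged per 1 Mb, the mean rise was highest from 8 to 9 Mb (0.33 in the double mutant and 0.37 in cec-4) and from 13 to 14 Mb (0.31 and 0.36). Within the body it was least from 16 to 17 Mb (0.12 and 0.10, with the first window of the right end included), from 4 to 5 Mb (0.17 and 0.15) and from 7 to 8 Mb (0.17 and 0.12).

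The size of the rise did not simply follow how depleted a window had been. The 3 lowest wild-type windows of X were 4.6 to 4.8 Mb (-0.64 ± 0.06, SD, n = 2), 7.4 to 7.6 Mb (-0.64 ± 0.06) and 10.4 to 10.6 Mb (-0.63 ± 0.09). Their changes in the double mutant were 0.20, 0.13 and 0.19, of which the first was called, and in cec-4 they were 0.18, 0.10 and 0.15, of which 0 were called. The window at 8 to 8.2 Mb, almost as low in wild-type (-0.62 ± 0.08), rose by 0.36 and 0.35 (edgeR adjusted p = 6.03e-05 and 4.97e-05). Along X the 2 wild-type libraries had a Pearson correlation of 0.99 over 89 windows, and the wild-type mean had one of 0.889 with the double-mutant mean and 0.737 with the cec-4 mean. These describe the profiles only, since neighbouring windows are not independent and input levels are shared within a genotype.

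**Figure D4:**
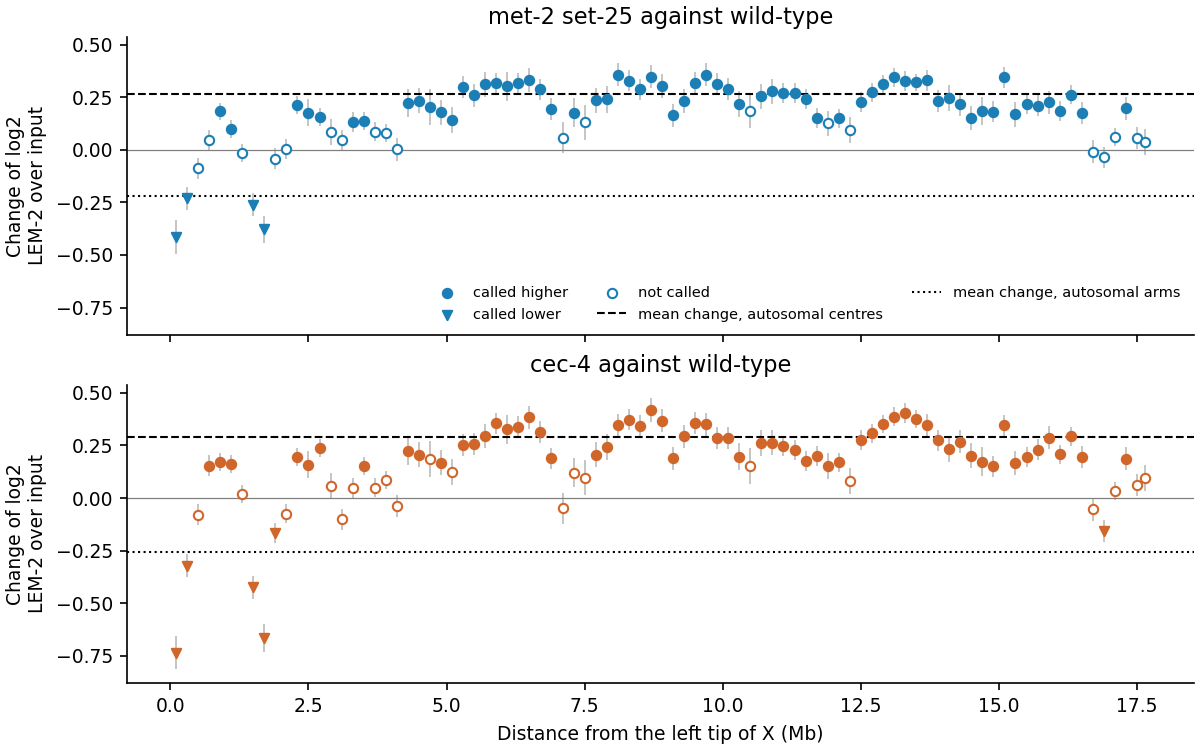
Change of log2 LEM-2 over input against wild-type (y axis, edgeR estimate ± SE) in the 89 windows of X by distance from the left tip in Mb (x axis), for the double mutant above and cec-4 below, with filled circles called higher, filled triangles called lower and open circles not called. Dashed and dotted lines give the mean change of the autosomal centres and arms, and the body scatters around or below the dashed line while the first 2 Mb reach -0.41 in the double mutant and -0.74 in cec-4.

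Local peaks were windows above both neighbours and at least 0.2 above the median of the 5 windows on each side in both wild-type libraries, and 10 X windows met this. They lay at 0 to 0.2, 1.6 to 1.8, 5 to 5.2, 6.4 to 6.6, 7 to 7.2, 9 to 9.2, 11.8 to 12, 12.2 to 12.4, 15.8 to 16 and 17.6 to 17.7 Mb. Their median height above the flanks was 0.35 in wild-type, 0.21 in the double mutant and 0.16 in cec-4. Because the peaks were picked in wild-type, lower heights elsewhere are partly built into the choice, and these heights carry no test. The height reached 0.2 in both libraries for 4 of the 10 in the double mutant and for 3 in cec-4.

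The peaks differed from each other in the mutants. The peak at 6.4 to 6.6 Mb stood at -0.21 and -0.07 in wild-type, 0.20 and 0.18 in the double mutant, and 0.19 and 0.30 in cec-4. Both mutants lay above both wild-type libraries and on the other side of input, and it stood 0.36, 0.39 and 0.47 above its flanks in wild-type, the double mutant and cec-4. The peak at 15.8 to 16 Mb stood at 0.02 and 0.10 in wild-type, 0.28 and 0.30 in the double mutant, and 0.28 and 0.41 in cec-4, and its height over the flanks was 0.32, 0.36 and 0.45. These body peaks and the right tip kept a height of 0.2 in every library. The peak at 7 to 7.2 Mb stood at -0.22 and -0.07 in wild-type, -0.05 and -0.12 in the double mutant, and -0.12 and -0.27 in cec-4. Here the libraries overlapped between genotypes, no change was called, and the height over the flanks was 0.37 in wild-type, 0.14 in the double mutant and 0.03 in cec-4. The left-end peaks went down in both level and height, and the height of the left tip was 0.76, 0.30 and -0.11.

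To compare X with the autosomes, each library was set to its own mean over the autosomal centres, or over the autosomal arms, and the 18 regions of the genome were tested with limma and Benjamini-Hochberg adjustment over the regions. Relative to the centres the body of X was 0.06 and 0.09 in wild-type, 0.05 and 0.04 in the double mutant, and 0.02 and 0.02 in cec-4. All 6 libraries were above the centres, and the mutant libraries were below both wild-type libraries. The change was -0.03 in the double mutant (95% interval -0.10 to 0.04, adjusted p = 0.392) and -0.05 in cec-4 (-0.12 to 0.02, adjusted p = 0.178). The body was therefore not shown to move differently from the centres, and a change of its own of more than 0.12 lies outside both intervals. With each region's own variance the change in cec-4 was called (adjusted p = 0.0487). Relative to the arms it rose, by 0.46 in the double mutant (SE 0.05, adjusted p = 5.76e-06) and 0.50 in cec-4 (SE 0.05, adjusted p = 2.39e-06, limma). The libraries stood at -0.83 and -0.68 in wild-type, -0.26 and -0.34 in the double mutant, and -0.23 and -0.28 in cec-4. The exact two-sided permutation p was 0.333 for each mutant, the smallest possible. Limma pools variance over regions that share a library and are not independent, so its p-values, also those of the ends below, can be too small.

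The left end of X was 0.48 and 0.42 above the centres in wild-type, 0.17 and 0.19 in the double mutant, and 0.10 and 0.10 in cec-4. The 3 genotypes were apart, with wild-type highest and cec-4 lowest. Relative to the centres it fell by 0.27 in the double mutant (SE 0.03, adjusted p = 0.000541) and by 0.35 in cec-4 (SE 0.03, adjusted p = 0.000183, limma). The 10 autosomal arms all fell on the same scale, by 0.28 to 0.65 in the double mutant and by 0.29 to 0.94 in cec-4, with the left arm of V falling least in both. In the double mutant the X left end fell less than any arm. In cec-4 its fall was larger than that of the left arm of V and close to that of the right arm of IV (0.35). It also started nearer the centres than any arm. As a share, 40.8% and 22.8% of its wild-type excess over the centres was left, against 41.2% and 34.0% for the pooled arms. Relative to the mean of the arms the X left end rose by 0.22 and 0.20 (SE 0.04, adjusted p = 0.000638 and 0.00102, limma). Before this scaling its change was 0.00 in the double mutant (95% interval -0.09 to 0.09) and -0.05 in cec-4 (-0.14 to 0.03), with neither called. With TMM factors both were called falls, of -0.09 and -0.18.

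The right end was 0.59 and 0.51 above the centres in wild-type, 0.36 and 0.34 in the double mutant, and 0.32 and 0.29 in cec-4. Relative to the centres it fell by 0.20 in the double mutant (SE 0.04, adjusted p = 0.00296) and by 0.25 in cec-4 (SE 0.04, adjusted p = 0.00118, limma), and relative to the arms it rose by 0.29 and 0.30 (adjusted p = 0.000166 and 8.97e-05, limma). Without such scaling its changes of 0.06 and 0.04 were not called and became -0.03 and -0.08 with TMM factors, whereas they were called rises of 0.16 and 0.15 with medians over windows and of 0.12 and 0.11 with a right end of 10 windows. Within libraries, the right end exceeded the body by 0.53 and 0.42 in wild-type, 0.31 and 0.30 in the double mutant, and 0.29 and 0.26 in cec-4. The left end exceeded it by 0.42 and 0.33, 0.13 and 0.15, and 0.07 and 0.08. As a share of the wild-type difference, 63.8% and 58.3% of the right end's contrast with the body was left in the double mutant and cec-4, and 37.1% and 20.8% of the left end's. For the contrast of autosomal arms with centres the shares were 41.2% and 34.0%. The wild-type and mutant libraries did not overlap in any of these contrasts, and each exact two-sided permutation p was 0.333, the smallest possible. The arms were pooled in these shares, and single arms differed widely. Relative to the centres the right arm of IV went from 1.03 in wild-type to 0.63 in the double mutant and 0.68 in cec-4. The right arm of I went from 0.75 to 0.10 and -0.06. The shares thus do not set the ends of X apart from single arms.

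**Figure D5:**
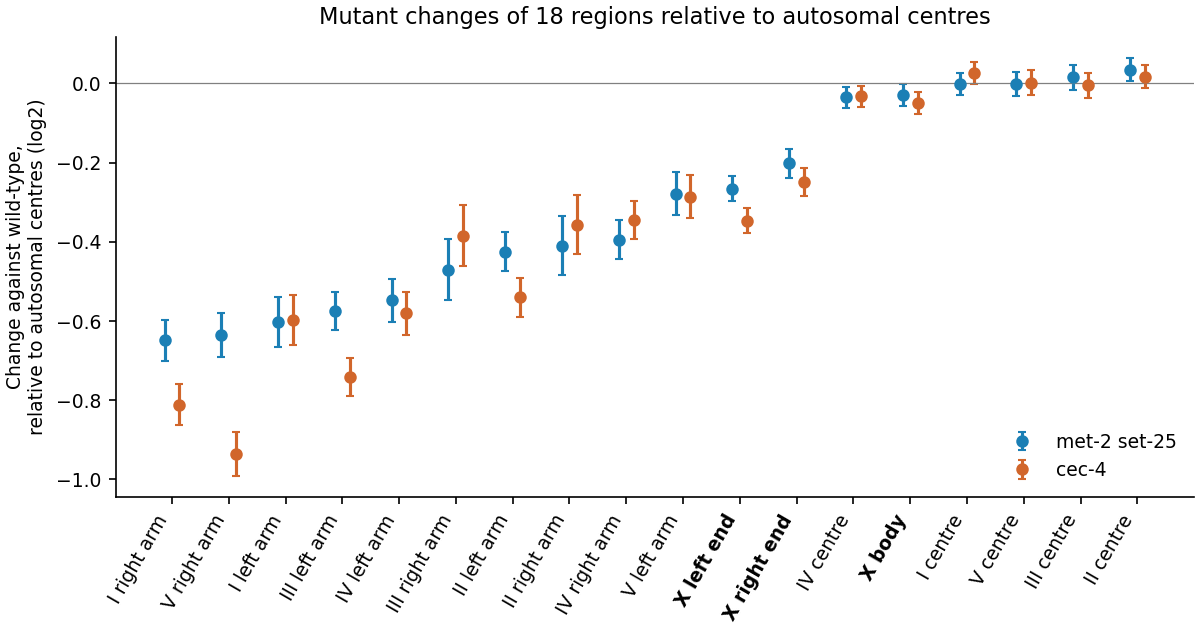
Change against wild-type of the mean log2 LEM-2 over input relative to autosomal centres (y axis, limma estimate ± SE) for the 18 regions of the genome (x axis, ordered by the change in the double mutant, X in bold). The body of X lies with the autosomal centres, at -0.03 and -0.05, and its left end (-0.27 and -0.35) and right end (-0.20 and -0.25) lie between the centres and most arms.

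Window by window on the same scale, with each library scaled to its counts in the autosomal centres, 25 X windows fell and 1 rose in the double mutant, against 48.2% and 9.92% of all windows (edgeR, adjusted over 504 windows). The fall count was 16 without wild-type replicate 1, 16 without double-mutant replicate 1 and 15 without double-mutant replicate 2. In cec-4, 32 fell and 1 rose, against 48.2% and 10.1%. Of the 20 left-end windows 16 fell in the double mutant and 17 in cec-4, so on this scale the loss was not limited to the first 2 Mb. Of the 5 right-end windows 4 fell in each mutant. Of the 64 body windows 5 fell in the double mutant and 11 in cec-4, and the autosomal arms gave 194 and 185 of 215. The body windows that fell most were next to the ends or at a peak. They were 16.6 to 16.8 Mb (by 0.27 and 0.34), 4 to 4.2 Mb (by 0.26 and 0.33) and 7 to 7.2 Mb (by 0.20 and 0.34). The 1 window that rose was 8 to 8.2 Mb in the double mutant (0.10, adjusted p = 0.0348, edgeR) and 8.6 to 8.8 Mb in cec-4 (0.13, adjusted p = 0.0384). This count of 1 ranged from 0 to 5 in cec-4 and from 0 to 1 in the double mutant when single replicates were left out.

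Windows of the same wild-type level were also set side by side, taking the level from one wild-type replicate and the change against the other. For levels between -0.6 and -0.4 in replicate 1, the median change was 0.22 in the double mutant and 0.21 in cec-4 for 25 X windows outside the left end, and 0.28 and 0.32 for 56 windows of autosomal centres. With the replicates exchanged it was 0.29 and 0.29 for 19 X windows, and 0.38 and 0.40 for 61 windows of the centres. For levels between -0.4 and -0.2 the medians were 0.22 and 0.25 for 20 X windows against 0.26 and 0.31 for 39, and 0.32 and 0.31 for 25 against 0.35 and 0.40 for 42 with the replicates exchanged. At these depleted levels the X windows had the smaller median rise. The order did not always hold at enriched levels, where windows were few: between 0 and 0.3 in replicate 1 the median change was 0.08 and 0.10 for 4 X windows, and -0.01 and 0.04 for 10 windows of the centres. These medians are a description with no test.

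Between the mutants, 2 X windows were called higher in the double mutant than in cec-4 and 0 lower, against 7.54% and 0.595% of all windows, and 7 X windows had an unadjusted p under 0.05. They were the left tip, 0 to 0.2 Mb, by 0.32 (SE 0.08, adjusted p = 0.0213), and 1.6 to 1.8 Mb, by 0.29 (SE 0.06, adjusted p = 0.0128, edgeR). The count was 5 with DESeq2, 0 in a fit of only these genotypes, and 0 to 4 when single replicates were left out. By region the mutants differed by 0.05 at the left end (95% interval -0.03 to 0.14), by -0.01 in the body (-0.09 to 0.08) and by 0.02 at the right end (-0.07 to 0.11), with 0 called by limma.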

How the data were processed

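LEM-2 ChIP and input DNA from early embryos were sequenced as paired ends, per the labels' protocols. The authors deposited raw counts per 200 kb window for 12 libraries, and Bowtie was named in the submitters' processing notes. Neither the build nor the filters nor the counting of pairs is given in the sources used here. A second deposited table held log2 values, which equalled log2 of the count rescaled to the mean library total plus 1 (largest difference 5.15e-14) and served as an alternative.

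All 504 windows were fitted with edgeR 4.0.16 (quasi-likelihood, a mean per group, library total as scaling, R 4.3.3) and regions with limma 3.58.1 over 18 regions that do not overlap, both with Benjamini-Hochberg adjustment at 0.05. For the scale relative to autosomal centres, library size was the count in the 200 centre windows. Limma gave all regions a common variance when no region was subtracted. Autosomal centres ran from 4 to 11 Mb (I), 5 to 12 (II), 4 to 10 (III), 4 to 13 (IV) and 6 to 17 (V), with arms outside. Poisson error was 0.749% of the smallest median X count, and counting error alone is covered by it, since PCR copies are not independent molecules. The spread between libraries was larger.

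The X windows, region borders and lists were chosen with earlier results of these data known. Windows named were the 5 highest and 3 lowest of wild-type, the 5 largest called rises and falls of each mutant without overlap of libraries, the first and last 5, local peaks, windows outside the left end enriched in wild-type, and windows called between mutants. Others named with a value, such as those of the centre scale, were chosen after their values were seen. The labels state parallel growth in replicates, so numbers paired each LEM-2 library with its input in the levels. The main fits took a mean per group and did not use the replicate number as a block. Of 15 pairs of groups, 7 had a correlation of replicate deviations over 0.1 and 4 one under -0.1, the lowest being -0.545. The scripts were tested on simulated data. Alternatives were DESeq2 1.42.0, other scalings, borders, inputs and variances, a replicate block, and leaving out each replicate.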

Additional observations from a re-analysis of the deposited data

Results flagged for a closer look

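The left tip of X, 0 to 0.2 Mb, was flagged because the change from wild-type differed between the mutants (cec-4 and the double deletion of met-2 and set-25) when this difference was tested. LEM-2 over input was 0.32 higher in the double mutant than in cec-4 (SE 0.08, adjusted p = 0.0213, edgeR with Benjamini-Hochberg adjustment), and both double-mutant libraries (0.52 and 0.53) lay above both cec-4 libraries (0.32 and 0.10). The window at 1.6 to 1.8 Mb was flagged for the same reason, with a difference of 0.29 (SE 0.06, adjusted p = 0.0128), both double-mutant libraries (0.16 and 0.23) again lying above both of cec-4 (-0.03 and -0.17). In a fit of only these genotypes the adjusted p was 0.0687 and 0.0677. The difference at the left tip was 0.21 (adjusted p = 0.181) without cec-4 replicate 2. Both calls were also lost without either wild-type replicate, although wild-type enters the difference only through the shared spread, and without either double-mutant replicate.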

How the results depend on the processing

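All changes of X regions relative to autosomal arms, and all relative to autosomal centres but the body in cec-4 with each region's own variance (-0.049, adjusted p = 0.0487), kept direction and call in every alternative run. Changes relative to library totals did not. With TMM factors the windows called were 42 higher and 8 lower in the double mutant, 35 and 13 in cec-4, and 4 higher in the double mutant than in cec-4. The left end was -0.094 (adjusted p = 0.0417) in the double mutant and -0.18 (0.000327, limma) in cec-4, and the right end -0.031 and -0.079. TMM reversed 0.6 to 0.8 (-0.049), 17 to 17.2 (-0.032), 17.4 to 17.6 (-0.037) and 17.6 to 17.7 Mb (-0.056) in the double mutant, the last 3 also in cec-4 (-0.090, -0.060 and -0.029), and the wild-type level at 9 to 9.2 Mb (0.028). DESeq2 size factors gave 17 X windows enriched in wild-type, 29 higher and 11 lower in the double mutant, and 34 and 14 in cec-4. They reversed the same 4 windows in the double mutant (-0.090, -0.073, -0.078 and -0.097) and the same 3 in cec-4 (-0.095, -0.065 and -0.034). DESeq2's Wald test called 5 windows higher in the double mutant than in cec-4, and 2 (the double mutant) and 5 (cec-4) that rose relative to centres. Fits of only the groups compared gave 0, 3 and 0 for these. With medians over windows the right end was called, at 0.16 (adjusted p = 0.00257) and 0.15 (0.00458, limma), the left end in cec-4 was 0.073, and its left end minus body changed by -0.18. A right end of 10 windows was also called (0.12, adjusted p = 0.0108, and 0.11, adjusted p = 0.0141, limma). The left end in the double mutant was -0.0038 with the mean of all inputs and -0.031 below 3 Mb.

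Without single replicates the left end in the double mutant ranged from -0.0094 to 0.011, the window at 17.4 to 17.6 Mb in cec-4 from -0.0099 to 0.14 and that at 17.6 to 17.7 Mb in the double mutant from -0.0032 to 0.081. X windows enriched in the double mutant ranged from 10 to 20 and depleted ones from 25 to 48, those higher in the double mutant than in cec-4 from 0 to 4, those that fell relative to centres in the double mutant from 15 to 30, and those that rose from 0 to 1 in the double mutant and 0 to 5 in cec-4. The replicate block changed no call among the X regions, the named rises and falls, the first and last 5 windows, or the windows called between the mutants. Calls of the other named windows, such as the lowest windows and further peaks, were not followed one by one. Over the 8 comparisons of the 89 X windows, 7 calls were lost, 5 gained and 0 reversed, with 64 higher and 4 lower in the double mutant. With the wild-type numbers crossed, added after seeing the data, the counts were 65 and 4, 64 and 6 in cec-4, and 3 in cec-4 that rose relative to centres. The filter removed 0 windows, so its alternative was void. The causes were not tested. With 2 libraries per group the variance is mostly borrowed across windows or regions.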

Other observations

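Of the 10 windows at the ends of the autosomes, 2 were called lower and 2 higher in the double mutant than in wild-type, with changes between -0.54 and 0.20, against 29.8% lower and 49.4% higher over all windows. In cec-4, 3 were lower and 3 higher, with changes between -0.57 and 0.36, against 27.6% and 50.6% (edgeR with Benjamini-Hochberg adjustment over 504 windows). The change of -0.74 at the left tip of X in cec-4 lay below all 10, and its change of -0.41 in the double mutant was exceeded in size by the left tip of I (-0.54) alone. The 2 wild-type libraries were further apart at the autosomal ends, with replicate 1 higher at each. The left tip of I stood at 0.79 and 0.51 and that of IV at 0.31 and 0.01, against 0.96 and 0.92 for X. Changes and calls at autosomal ends thus depend more on the wild-type library used. The right tip of IV, at 0.87 and 0.73 in wild-type, was called higher in both mutants, by 0.19 and 0.28, while the right tip of X (0.04 and 0.09) was called in neither. End windows differ in length and were compared under the library total.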
